A study of Mus musculus with 21 samples.

Results

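Paneth cells, at the base of the crypts of the small intestine, store antimicrobial proteins in large granules, of which the α-defensins (Defa genes) are the most abundant. The genes described here are 10 secreted Paneth cell products other than α-defensins: the lysozymes Lyz1 and Lyz2, the ribonuclease Ang4, the lectin Itln1, the mucosal pentraxins Mptx1 and Mptx2, the metalloprotease Mmp7, the protease inhibitor Spink4, the serine protease Habp2 and the lipase Pnliprp2. They were chosen by name, as 10 of the 55414 gene identifiers in the table of counts, and all 10 were among the 13070 genes that passed the filter on low counts. The data were 21 RNA-seq libraries, each from small-intestinal Paneth cells that FACS had isolated from mice, C57BL/6J according to the methods of the study. Specific pathogen-free (SPF) mice on Milli-Q water (n = 3) or on water with 200 mM zinc sulfate (n = 3) were compared with mice that drank the same waters and received broad-spectrum antibiotics for the last 3 weeks (n = 4 each). The other groups were germ-free mice on Milli-Q water (n = 3) or zinc water (n = 4). Both waters were given for 7 weeks according to the labels. SPF-housed mice below are the SPF and antibiotic-treated groups together.

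A lysozyme cuts the peptidoglycan of bacterial cell walls, Ang4 is a ribonuclease with microbicidal activity, and intelectin (Itln1) binds glycans of microbial surfaces. Mucosal pentraxins belong to the family of C-reactive protein, and Mptx2 is a known marker of mouse Paneth cells. Mmp7 (matrilysin) is the protease that cuts mouse pro-α-defensins to their active form, so that it shares its granules with its substrates. Spink4 is a Kazal-type protease inhibitor that is also found in goblet cells, Habp2 a hyaluronan-binding serine protease that circulates in plasma, and Pnliprp2 a relative of pancreatic lipase.

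The libraries held 9888174 to 16896714 counts each. The sorted cells carried their defining markers, with Defa24, Defa30, Cd24a, Lyz1, Wnt3 and Sox9 together at 25.4% to 45.2% of counts. This sum includes Lyz1, itself among the 10 genes, and does not measure other cells. On Milli-Q water, stem and cycling markers took 0.418% to 0.596% of counts in SPF and 0.146% to 0.208% in germ-free mice. Tuft markers took 0.0208% to 0.0320% and 0.00846% to 0.00905%, and enteroendocrine markers 0.0132% to 0.0277% and 0.00387% to 0.00528%. Enterocyte and goblet markers overlapped between these groups. Most genes held a smaller share of counts in germ-free mice, so that these falls are not particular to the markers. With library totals only, edgeR's quasi-likelihood test put 70.9% of 13070 genes lower in germ-free than SPF mice on Milli-Q water (adjusted p under 0.05). Half-way through the ranked genes, the log2 value of that contrast stood at -0.99. Whether the purity of the sorts differed was not tested. Values are given as the percent of all counts of a library and as CPM scaled by TMM (scaled CPM), a method that sets libraries to a common level on most genes. TMM factors were 0.996 to 1.49 in the 14 SPF-housed libraries and 0.522 to 0.834 in the 7 germ-free ones. The choice between both scales therefore moved every germ-free comparison, and both are given. Germ-free zinc replicate 1 had the lowest factor and the fewest genes detected (13747), and SPF zinc replicate 1 differed from the rest in holding 6228 counts of Xist, a transcript of female cells. Counts called without these libraries are given below.

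Among the 10 genes are 2 pairs of paralogues, of which one was abundant and the other close to the detection limit in every library. Lyz1 (chromosome 10, 117123698 to 117128775, minus strand, 4 exons) and Lyz2 (chromosome 10, 117111557 to 117118346, minus strand, 4 exons) lie side by side in GRCm39. Lyz2 held 59 to 203 counts in a library, or 0.00417% to 0.0151% of the counts of Lyz1. Mptx1 (chromosome 1, 174158084 to 174160439, plus strand) held 17 to 316 counts, or 0.0423% to 0.538% of those of Mptx2 (chromosome 1, 173101949 to 173105344, minus strand). The 150 bases before the RefSeq start of each gene are printed here because the members of each pair resemble each other there in spite of this gap in level. The windows are from GRCm38.p6, an older build than that of the counts, and run 5′ to 3′ on the gene's strand. Capitals mark bases without an identical partner in the gapped alignment to the paralogue. The windows are chr10:117292869-117293018 (minus) for Lyz1, chr10:117282273-117282422 (minus) for Lyz2, chr1:174330368-174330517 (plus) for Mptx1 and chr1:173277757-173277906 (minus) for Mptx2.
Lyz1: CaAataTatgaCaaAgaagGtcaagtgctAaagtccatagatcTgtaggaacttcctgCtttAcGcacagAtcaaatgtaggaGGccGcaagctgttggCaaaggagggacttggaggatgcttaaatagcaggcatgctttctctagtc
Lyz2: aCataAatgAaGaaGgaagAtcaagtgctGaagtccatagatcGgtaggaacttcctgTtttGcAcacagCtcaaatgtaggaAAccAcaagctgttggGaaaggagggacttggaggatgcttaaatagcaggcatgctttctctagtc
Mptx1: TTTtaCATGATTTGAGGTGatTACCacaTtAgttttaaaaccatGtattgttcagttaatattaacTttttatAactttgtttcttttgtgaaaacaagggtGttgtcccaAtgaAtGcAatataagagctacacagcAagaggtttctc
Mptx2: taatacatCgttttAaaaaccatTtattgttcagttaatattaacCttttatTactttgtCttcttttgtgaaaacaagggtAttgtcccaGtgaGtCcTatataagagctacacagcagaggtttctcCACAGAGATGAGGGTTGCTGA
In the lysozyme pair 134 of 150 bases were identical (89.3%), and in the pentraxin pair 118 of 150 (78.7%). The run of differing bases at one end of each pentraxin window reflects starts annotated at unequal positions. In the transcripts, 121 of the 1212 stretches of 60 bases of Lyz1 were also found in another gene (Lyz2 or Gm68107), as were 104 of 740 in Mptx1 and 104 of 735 in Mptx2, which share them with each other. The treatment of such reads in the counting is unknown here, so that counts of Lyz2 and Mptx1 are uncertain. Macrophages are another known source of Lyz2. Of 12 myeloid markers, Csf1r was at 0 in all 21 libraries, while others were detected. The 12 together held 5.04e-05% to 0.00136% of the counts of a library, against 0.000444% to 0.00153% for Lyz2 itself. Their part in the Lyz2 counts was not tested.

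The 10 genes together took 13.6% to 23.2% of all counts of a library, against 24.1% to 44.5% for the 28 protein-coding Defa genes. Of these, 7 held under 10 counts in every library. Defa genes resemble each other closely, and as the treatment of reads with several hits is unknown, their sum, here a share and below a denominator, is uncertain as well. Ranked by mean count among all genes of the table, Lyz1 was 2, Itln1 4, Ang4 10, Spink4 12, Mmp7 17, Mptx2 18 and Pnliprp2 25. Per transcript length the order of the levels was Lyz1 with 92173 ± 13763 TPM (SD, n = 21), Itln1 with 28444 ± 4548, Spink4 with 11386 ± 1235 and Ang4 with 8284 ± 879. Mptx2 with 3527 ± 2216 TPM and Mmp7 with 2877 ± 498 followed, and their order depended on the context. Mptx2 was the higher in 8 of 21 libraries, among them every SPF library (5675 to 7366 TPM, against 2862 to 3765 for Mmp7). In every germ-free library Mptx2 was the lower (1325 to 2554 TPM, against 2188 to 2593). Pnliprp2 stood at 1193 ± 196 TPM, Habp2 at 104 ± 12.2, Mptx1 at 7.30 ± 7.02 and Lyz2 at 2.54 ± 0.957. Among the 8 abundant genes, Mptx2 had the widest spread relative to its mean.

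**Figure D1:**
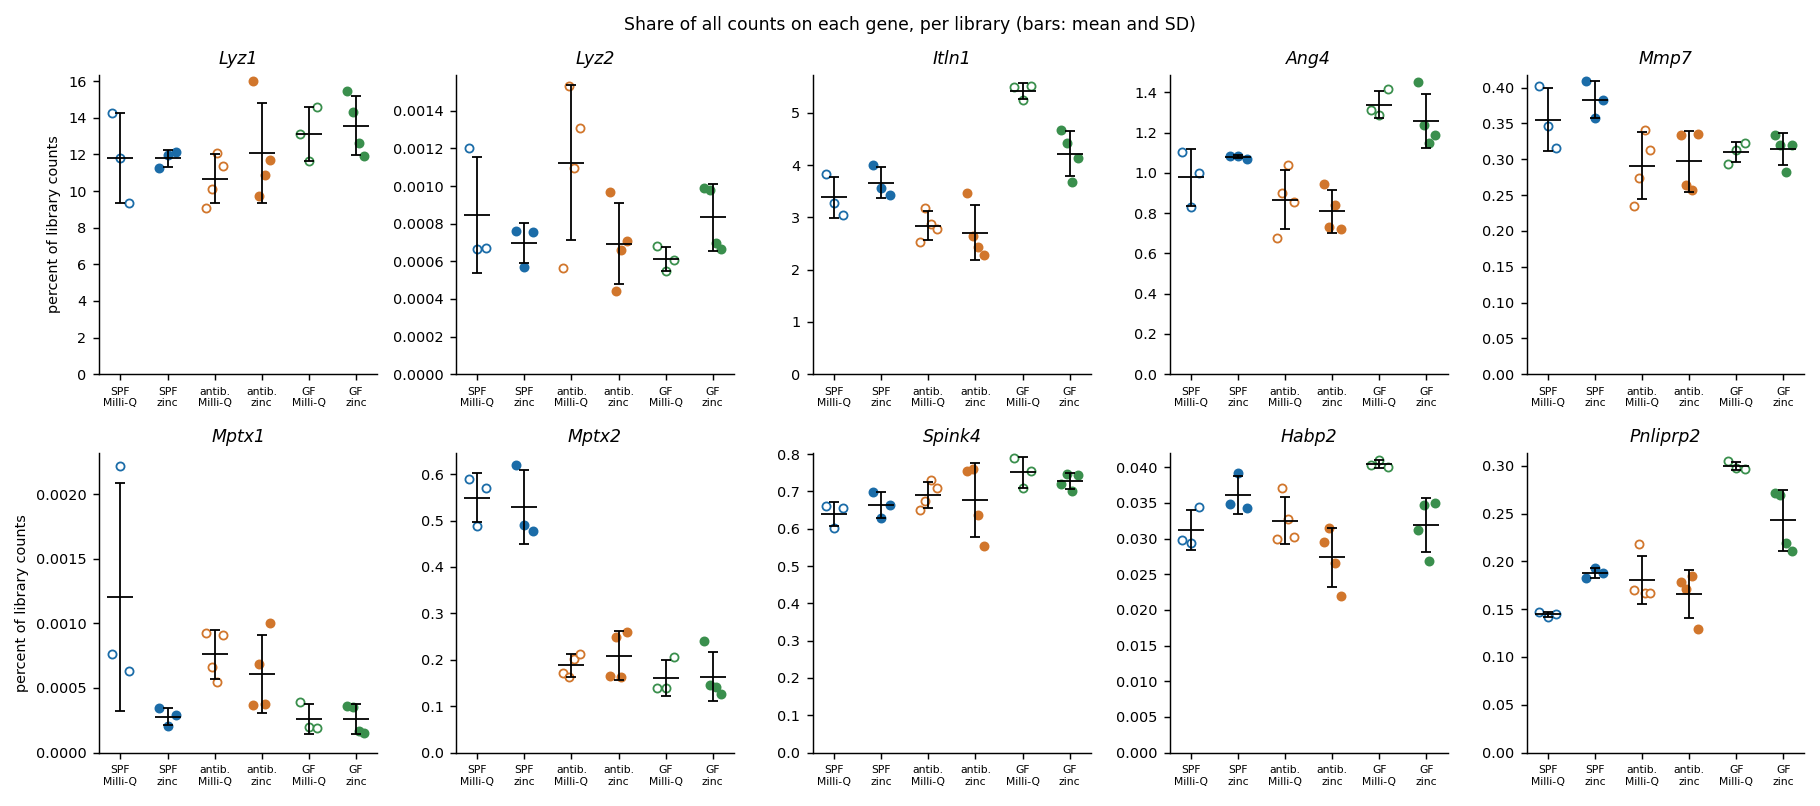
Percent of all counts on each of the 10 genes (linear axis from 0) in the 21 libraries by group; open circles are Milli-Q and filled circles zinc water, blue SPF, orange antibiotic-treated (antib.) and green germ-free (GF), with bars for the mean and SD. Mptx2 sits at 0.478% to 0.621% in SPF and at 0.126% to 0.260% in all other libraries, whereas Pnliprp2 is highest in germ-free mice on Milli-Q water.

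The first question was how the microbiome context changed these products. In germ-free against SPF mice on Milli-Q water, Lyz1, Itln1, Ang4, Mmp7, Spink4, Habp2 and Pnliprp2 were higher and Mptx2 was lower at an adjusted p under 0.05 in edgeR's quasi-likelihood test. These were 7 of 10 genes higher and 1 lower, against 12.7% of all genes tested higher and 11.6% lower. The median log2 fold change of the 10 was 1.13, against -0.03 over all genes. On zinc water the same contrast gave 4 of 10 higher (Itln1, Ang4, Spink4 and Pnliprp2) and 1 lower (Mptx2), against 3.47% and 2.38% of all genes. Without germ-free zinc replicate 1 these were 2 higher and 1 lower, against 224 and 146 of all 13073 genes. Without SPF zinc replicate 1 they were 3 higher and 0 lower, against 317 and 224 of all 13362 genes. With only the compared groups in the fit, 0 of the 10 and 0.118% of all genes (in either direction) were called on zinc water, and the median of the 10 was 0.83, as in the fit of all groups. The call of Lyz1 on zinc water missed the threshold (log2 fold change 0.89 ± 0.27 SE, adjusted p 0.0545) but was made by DESeq2 (adjusted p 0.00725). In germ-free against antibiotic-treated mice, 8 of 10 were higher on Milli-Q water (all but Lyz2 and Mptx1) and 8 on zinc water (all but Mptx1 and Mptx2), with 0 lower in both. With size factors of the DESeq2 type in place of TMM, 7 were higher on Milli-Q water, without Mptx2 (1447 of all 13070 genes). On zinc water 7 were higher without germ-free zinc replicate 1 (774 of all 13073 genes), and 7 without SPF zinc replicate 1 (862 of all 13362 genes). Of all genes, 12.5% and 7.07% were higher and 9.70% and 6.09% lower in these contrasts. Germ-free mice on each water served in both contrasts, so these counts are not independent. Antibiotics gave 1 call on Milli-Q water, Mptx2, which was lower (0.153% of all genes were lower). On zinc water Mptx2 and Habp2 were lower, which were 2 of 10 genes against 4.21% of all genes. In such bulk libraries, fewer cells of a type and less RNA per cell cannot be told apart.

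The size of the germ-free rise depended on the scale. With library totals only, the median of all genes in germ-free against SPF mice moved to -0.99 on Milli-Q and -0.61 on zinc water, and against antibiotic-treated mice to -1.05 and -0.74. On that scale Itln1, Ang4, Habp2 and Pnliprp2 were still higher in germ-free than SPF mice on Milli-Q water and Mptx1 and Mptx2 were lower, or 4 and 2 of 10 genes against 0.566% and 70.9% of all genes. On zinc water Pnliprp2 was higher and Mptx2 lower (0.245% and 48.0% of all genes). Against antibiotic-treated mice Itln1, Ang4 and Pnliprp2 were higher on Milli-Q water, with Lyz2 and Mptx1 lower (0.505% and 78.6% of all genes). Itln1, Ang4 and Pnliprp2 were higher on zinc water, with Mptx1 lower (0.903% and 65.3% of all genes). The calls of Lyz1, Mmp7 and Spink4 were lost in each of these contrasts in which they had been made. Itln1, Ang4 and Pnliprp2 were thus the genes whose rise on Milli-Q water held on either scale against both SPF-housed groups.

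The second question was whether these genes moved with the Defa genes. The Defa genes took 24.1% to 36.4% of counts in SPF-housed and 39.3% to 44.5% in germ-free libraries, and 18 of the 20 that were tested were higher in germ-free than SPF mice on Milli-Q water (median log2 fold change 1.47). The same model was therefore fitted with the summed Defa counts as the library size, so that a value of 0 means a change equal to that of the Defa sum. On this scale the median of all genes was -1.59 in germ-free against SPF mice on Milli-Q water, and 89.7% of all genes were lower and 0.130% higher. The 10 genes had a median of -0.40. Itln1 (0.09 ± 0.14 SE), Ang4 (-0.12 ± 0.15) and Habp2 (-0.21 ± 0.22) were not called and lay within 2 SE of the Defa sum; intervals of 2 SE ran from -0.20 to 0.38, from -0.42 to 0.18 and from -0.64 to 0.22. Pnliprp2 was higher than the Defa sum (0.46 ± 0.19, adjusted p 0.0219). The 6 genes that were lower were Spink4 (-0.35 ± 0.16, adjusted p 0.0401), Lyz1 (-0.44 ± 0.16, adjusted p 0.00900), Mmp7 (-0.79 ± 0.19), Lyz2 (-1.03 ± 0.33), Mptx2 (-2.34 ± 0.25) and Mptx1 (-2.91 ± 0.50). Without SPF Milli-Q replicate 1, SPF Milli-Q replicate 2 or germ-free Milli-Q replicate 2 the call of Lyz1 was lost (log2 values -0.36, -0.29 and -0.36), and that of Pnliprp2 without SPF Milli-Q replicate 1 or 3 (0.43 and 0.37). That of Spink4 was lost without any 1 of 6 libraries, which included all 3 germ-free Milli-Q ones (adjusted p up to 0.179).

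The other contrasts against the Defa sum gave fewer departures. In germ-free against SPF mice on zinc water, Mmp7 (-0.52 ± 0.17) and Mptx2 (-1.92 ± 0.23) were lower, or 2 of 10 genes against 63.7% of all genes, and 0 were higher. In germ-free against antibiotic-treated mice on Milli-Q water, Itln1 was higher (0.34 ± 0.13, adjusted p 0.0156, or 0.0502 without germ-free Milli-Q replicate 3) and Lyz2, Mmp7, Mptx1, Mptx2 and Spink4 were lower. These were 1 and 5 of 10 genes against 0.122% and 92.0% of all genes. On zinc water Lyz1, Mmp7, Mptx1, Mptx2 and Spink4 were lower, or 5 of 10 against 86.2% of all genes. Lyz1 was no longer called there without antibiotics zinc replicate 1 (-0.27, adjusted p 0.0582). Antibiotics against SPF on Milli-Q water left Mptx2 lower (-1.53 ± 0.22, adjusted p 9.67e-05, against 0.298% of all genes lower). On zinc water Mptx2 was lower (-0.97 ± 0.22) and Mptx1 higher (1.51 ± 0.47), or 1 gene each against 0.949% and 18.7% of all genes. Without SPF zinc replicate 1 neither was called (adjusted p 0.0771 and 0.0920), and Mptx1 was also lost without SPF zinc replicate 2 or 3 or antibiotics zinc replicate 2 or 4 (adjusted p up to 0.115). Ang4 was not called in any of these 6 contrasts, with values between -0.16 and 0.06, and Mmp7 was lower than the Defa sum in all 4 germ-free contrasts. Without the filter on low counts, 2 of these Mmp7 calls were lost, germ-free against SPF on zinc water (adjusted p 0.0755) and against antibiotics on Milli-Q water (adjusted p 0.0678), as were all calls relative to the Defa sum of Lyz1, Itln1, Spink4 and Pnliprp2.

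**Figure D2:**
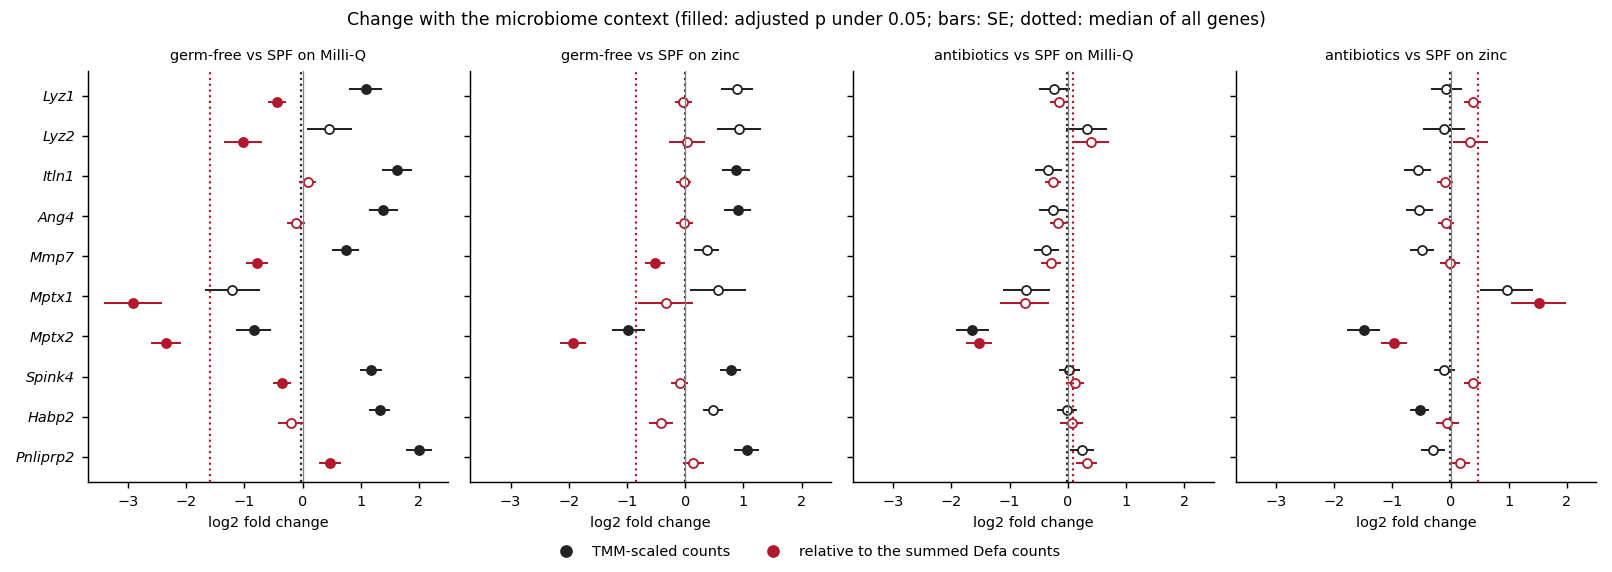
Log2 fold change (x axis) of each gene with its SE in 4 contrasts of microbiome context, as TMM-scaled counts (black) and relative to the summed Defa counts (red); filled circles have an adjusted p under 0.05 and dotted lines mark the median of all genes. In germ-free against SPF mice on Milli-Q water the red points of Itln1 and Ang4 lie at 0.09 and -0.12, those of Mptx1 and Mptx2 at -2.91 and -2.34.

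Lyz1, the principal lysozyme of Paneth cells, took 9.33%, 11.8% and 14.3% of counts in SPF mice on Milli-Q water and 11.6%, 13.1% and 14.6% in germ-free mice on that water, so that the groups overlapped. On the scaled CPM the same mice stood at 95674 ± 29375 (SD, n = 3) and 202657 ± 17640 (SD, n = 3) without overlap, with a log2 fold change of 1.08 ± 0.29 SE and an adjusted p of 0.00895. Without SPF Milli-Q replicate 3, the lowest of its group, the call was lost (0.90, adjusted p 0.0600). Against antibiotic-treated mice Lyz1 was higher by 1.32 ± 0.27 on Milli-Q and 0.96 ± 0.25 on zinc water, the second of which was not called without antibiotics zinc replicate 2 or 3 (0.80 and 0.89, adjusted p 0.0560 and 0.0517). With library totals only these values were 0.15 ± 0.165, 0.30 ± 0.15 and 0.17 ± 0.14, and none was called. Lyz2, the myeloid lysozyme, was called in 1 contrast, germ-free against antibiotics on zinc water (1.04 ± 0.34, adjusted p 0.0436), and that call was lost without any 1 of 12 libraries (adjusted p up to 0.145). With library totals only Lyz2 was lower in germ-free than antibiotic-treated mice on Milli-Q water (-0.88 ± 0.30, adjusted p 0.0108), in contrast to 0.13 ± 0.36 with TMM.

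Ang4 (angiogenin 4) took 0.828%, 0.998% and 1.11% of counts in SPF mice on Milli-Q water and 1.29%, 1.31% and 1.42% in germ-free mice on that water. Every germ-free library, on either water, lay above every SPF-housed library. The scaled CPM rose from 7919 ± 1982 (SD, n = 3) to 20728 ± 626 (SD, n = 3), a log2 fold change of 1.39 ± 0.25 SE (adjusted p 0.000541), and by 0.90 ± 0.24 on zinc water (adjusted p 0.0303). The call on zinc water was lost without any 1 of 5 libraries, of which germ-free zinc replicate 1 moved the value most (0.64, adjusted p 0.0988). Ang4 lies antiparallel to Gm62618, Gm63604 and Ear-ps3, and the library kit kept strand, but the strand setting of the counting is unknown here. Among its relatives, the log2 fold changes in germ-free against SPF mice on Milli-Q water were 1.52 ± 0.15 for Ang and 1.60 ± 0.23 for Rnase1, which both rose, and 0.48 ± 0.27 for Rnase4, which was not called. Rnh1, the cytosolic inhibitor of these ribonucleases, was not called either (0.22 ± 0.15).

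Itln1 took 3.04%, 3.28% and 3.82% of counts in SPF mice on Milli-Q water, 3.43%, 3.56% and 4.00% in SPF mice on zinc water, and 5.25%, 5.49% and 5.51% in germ-free mice on Milli-Q water. In germ-free mice on zinc water it took 3.67%, 4.13%, 4.41% and 4.67%, below all of those on Milli-Q water. Antibiotic-treated mice held 2.53% to 3.19% on Milli-Q and 2.29% to 3.46% on zinc water, which overlapped with the SPF libraries. The scaled CPM rose by 1.62 ± 0.26 log2 units in germ-free against SPF mice on Milli-Q water (adjusted p 0.000150) and by 0.87 ± 0.24 on zinc water (adjusted p 0.0338). The call on zinc water did not survive the loss of replicate 1 (0.64) or 2 (0.87) of the germ-free or replicate 2 (0.78) or 3 (0.81) of the SPF libraries. Against antibiotic-treated mice Itln1 rose by 1.96 ± 0.23 and 1.43 ± 0.22 on Milli-Q and zinc water, and these calls held without any single library. Of the 1150 stretches of 60 bases of its transcripts, 1 was shared with another gene (Gm9765).

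Mptx2 went the other way. It took 0.489%, 0.571% and 0.590% of counts in SPF mice on Milli-Q water and 0.478%, 0.490% and 0.621% on zinc water, against 0.163% to 0.213% and 0.162% to 0.260% after antibiotics. Germ-free mice held 0.138%, 0.139% and 0.206% on Milli-Q water and 0.126%, 0.141%, 0.146% and 0.241% on zinc water. No SPF library overlapped with any antibiotic-treated or germ-free library. After antibiotics the scaled CPM of Mptx2 fell by 1.64 on the log2 scale on Milli-Q water (SE 0.28, adjusted p 0.00728) and by 1.49 on zinc water (SE 0.28, adjusted p 0.00336). Without antibiotics Milli-Q replicate 1 or 2 the first call was just missed (-1.55 and -1.60, adjusted p 0.0538 and 0.0540). In germ-free against SPF mice Mptx2 fell by 0.84 (SE 0.30, adjusted p 0.0464) and by 0.98 (SE 0.28, adjusted p 0.0404). DESeq2 did not make these calls (adjusted p 0.0731 and 0.0513), and they were lost without any 1 of 7 and of 6 libraries (adjusted p up to 0.154 and 0.142). On the scale of library totals the falls were 1.77 (SE 0.23, adjusted p 1.99e-06) and 1.70 (SE 0.21, adjusted p 2.17e-05). The rise against antibiotic-treated mice on Milli-Q water (0.80 ± 0.28, adjusted p 0.0417) turned to -0.22 with library totals only. It was not called by DESeq2 (adjusted p 0.0929) and was lost without any 1 of 11 libraries (adjusted p up to 0.197). The call was also lost with size factors of the DESeq2 type, with TMM computed without the Defa and listed genes, and with a block for the replicate number. As a percent of the summed Defa counts, Mptx2 stood at 1.36% to 2.03% in the 6 SPF libraries, 0.497% to 1.02% in the 8 antibiotic-treated ones and 0.300% to 0.580% in the 7 germ-free ones. The genes of most similar pattern over the 21 libraries were Pdia2 (Pearson r of log-CPM 0.90) and Reg3g (0.88), a bactericidal lectin gene. Both values of such a pair share the scaling and depth of each library.

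Mptx1 stood at 0.000629%, 0.000762% and 0.00222% of counts in SPF mice on Milli-Q water and at 0.000207%, 0.000287% and 0.000341% on zinc water. SPF Milli-Q replicate 2 alone held 316 counts of Mptx1, more than any other library. The zinc value in SPF mice was -1.84 ± 0.47 SE on the scaled CPM and was not called (adjusted p 0.204, and unadjusted p under 0.05). Relative to the Defa sum Mptx1 was lower on zinc water in SPF mice (-2.49 ± 0.49, adjusted p 0.00616, against 0.620% of all genes lower) and averaged over contexts (-0.89 ± 0.26, adjusted p 0.0352, against 5.93% of all genes lower). Without SPF Milli-Q replicate 2 these were -1.44 (adjusted p 0.612) and -0.53 (adjusted p 0.170), and the calls were likewise lost without SPF zinc replicate 2 (-2.34 and -0.84) or 3 (-2.52 and -0.89). The averaged call was lost without any 1 of 10 libraries in all. In germ-free mice Mptx1 stood at 0.000151% to 0.000395% of counts, and after antibiotics at 0.000369% to 0.00100%.

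Mmp7 took 0.316%, 0.347% and 0.402% of counts in SPF mice on Milli-Q water and 0.294%, 0.313% and 0.322% in germ-free mice on that water. The groups overlapped on this scale. On the scaled CPM Mmp7 rose in germ-free against SPF mice on Milli-Q water from 2870 ± 661 to 4797 ± 236 (SD, n = 3 each; log2 fold change 0.74 ± 0.23 SE, adjusted p 0.0220), whereas with library totals only the value was -0.20 ± 0.16 and not called. The call was lost without SPF Milli-Q replicate 2 (0.63) or 3 (0.62) or germ-free Milli-Q replicate 2 (0.71) or 3 (0.73). On zinc water it was not called (0.37 ± 0.21). Relative to the summed counts of the Defa genes, its substrates, Mmp7 stood at 0.943% to 1.44% in the 6 SPF libraries and at 0.668% to 0.803% in the 7 germ-free ones, without overlap. The differences were -0.79 ± 0.19 (adjusted p 0.000288) and -0.52 ± 0.17 (adjusted p 0.0129) on Milli-Q and zinc water, and held without any single library, that on zinc water only with the filter on low counts. Relative to the Defa sum, 89.7% and 63.7% of all genes were lower in these contrasts, with medians of -1.59 and -0.84. Mmp7 thus lay closer to the Defa sum than the median gene did. AV064505 overlaps Mmp7 on the other strand.

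Spink4 lay between 0.555% and 0.790% of counts over all 21 libraries. It took 0.603%, 0.656% and 0.661% in SPF and 0.709%, 0.755% and 0.790% in germ-free mice on Milli-Q water, without overlap. The log2 fold change of the scaled CPM was 1.18 ± 0.19 SE (adjusted p 0.000204) on Milli-Q and 0.78 ± 0.18 (adjusted p 0.0148) on zinc water, but 0.23 ± 0.13 and 0.13 ± 0.12 with library totals only, which were not called. The call on zinc water was lost without SPF zinc replicate 2 or 3 (0.68 and 0.77). The markers of goblet cells, another known source of Spink4, were 8 genes. They summed to 0.390% to 0.996% of counts in SPF mice on Milli-Q water and 0.278% to 0.365% in SPF mice on zinc water. Antibiotic-treated mice held 0.561% to 0.870% and germ-free mice 0.251% to 0.423%, over both waters. The part of goblet cells in the Spink4 level was not tested.

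Habp2 took 0.0295%, 0.0298% and 0.0344% of counts in SPF and 0.0401%, 0.0403% and 0.0411% in germ-free mice on Milli-Q water. It rose by 1.33 ± 0.18 log2 units (adjusted p 3.28e-05), and by 0.37 ± 0.16 (adjusted p 0.0415) with library totals only. On zinc water the germ-free libraries overlapped with the SPF ones, and Habp2 was not called (0.48 ± 0.17, adjusted p 0.0850). After antibiotics on zinc water it fell by 0.53 (SE 0.16, adjusted p 0.0463), a call that was lost without any 1 of 14 libraries (adjusted p up to 0.149). Nrap lies on the other strand of Habp2.

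Against SPF mice, Pnliprp2 showed the largest germ-free log2 fold change of the 10 genes on either water, whereas against antibiotic-treated mice that of Itln1 exceeded it on both waters. It took 0.142%, 0.144% and 0.148% of counts in SPF mice on Milli-Q water and 0.297%, 0.298% and 0.305% in germ-free mice on that water. The scaled CPM rose from 1162 ± 154 to 4645 ± 131 (SD, n = 3 each), a log2 fold change of 2.00 ± 0.22 SE (adjusted p 5.23e-06), and 1.05 ± 0.16 with library totals only (adjusted p 6.78e-06). On zinc water it rose by 1.05 ± 0.21 (adjusted p 0.00675), which was not called without SPF zinc replicate 2 (1.01, adjusted p 0.0595). On zinc water the shares of the contexts lay closer together, at 0.183%, 0.187% and 0.193% in SPF and at 0.211%, 0.220%, 0.269% and 0.272% in germ-free mice. Zinc libraries were thus all above the Milli-Q libraries in SPF mice and all below them in germ-free mice as a share of counts, but the difference of the zinc effects was not called (-0.95 ± 0.30, adjusted p 0.233). Pnliprp2 is also a gene of the exocrine pancreas. Of 10 pancreatic acinar markers, Prss2, Cela2a, Cela3b, Cpb1, Amy2a5 and Pnlip were at 0 in all 21 libraries, Cpa1 was at 0 in 20, and Ctrb1 and Cela1 reached 8 and 295 counts. The 10 markers summed to 0.137% to 0.220% of counts in SPF-housed and 0.223% to 0.361% in germ-free mice, nearly all on Clps.

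**Figure D3:**
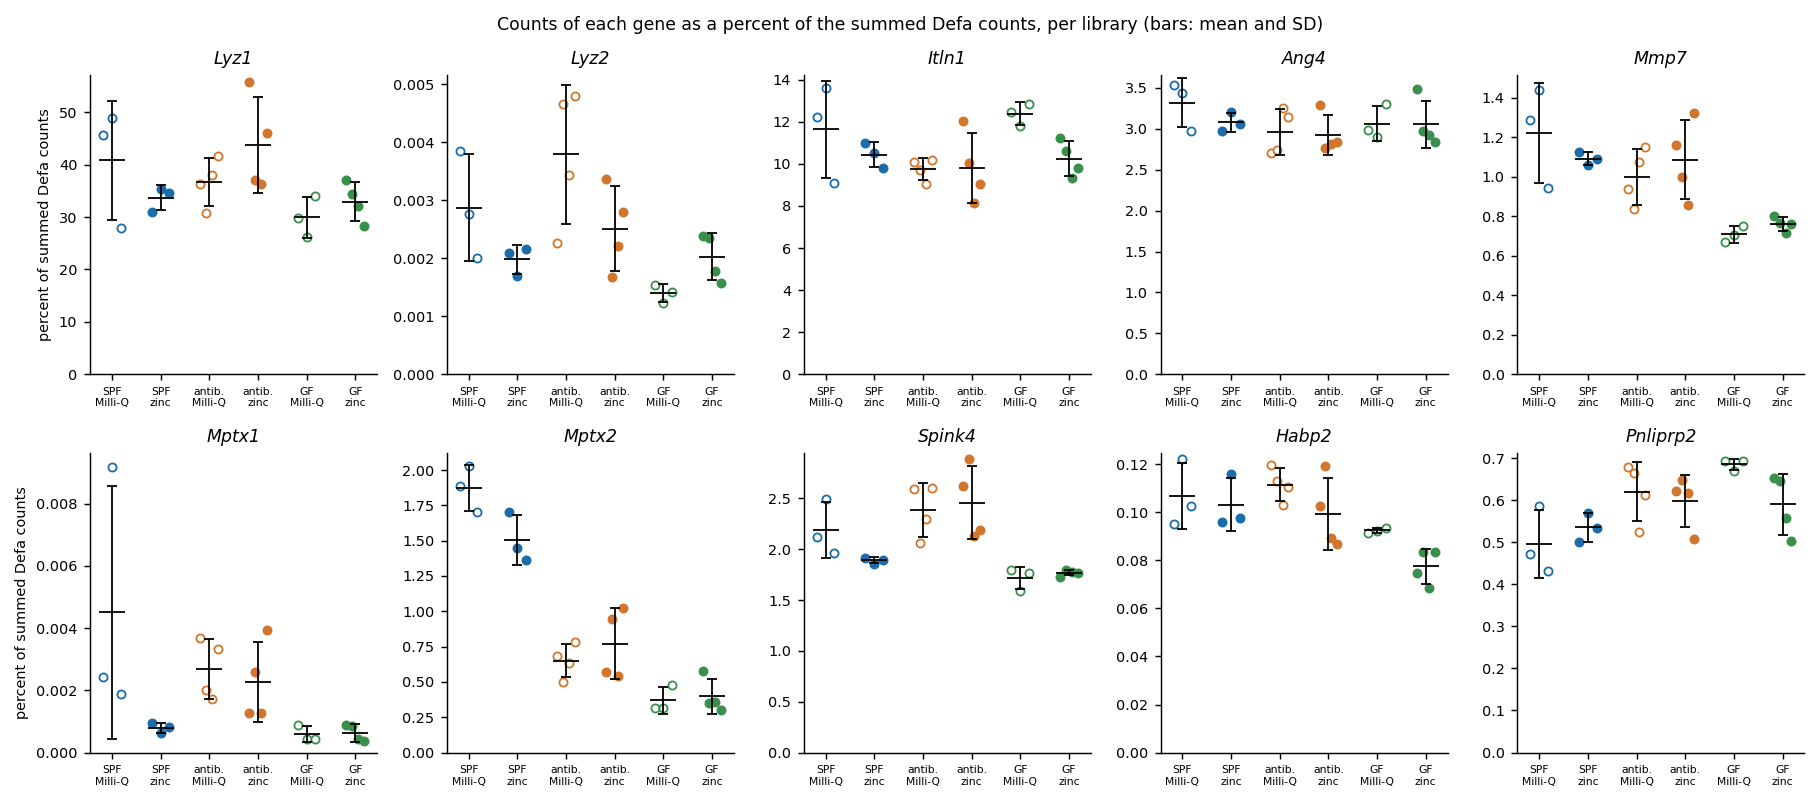
Counts of each gene as a percent of the summed counts of the 28 Defa genes (linear axis from 0) in each library, with colours, fills and bars as in the plot of shares of counts. Ang4 stays between 2.70% and 3.54% in all 21 libraries, whereas Mptx2 falls from 1.36% to 2.03% in SPF to 0.300% to 0.580% in germ-free libraries.

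The third question was whether zinc water changed these genes. None of the 10 passed the threshold in SPF, antibiotic-treated or germ-free mice or averaged over contexts in edgeR's quasi-likelihood test (0.138%, 21.7%, 11.4% and 21.9% of all genes did, in either direction). At an unadjusted p under 0.05 there were 3 of the 10 in SPF mice (Mptx1, Habp2 and Pnliprp2), 0 after antibiotics, 1 in germ-free mice (Habp2) and 1 averaged (Mptx1). Of all 13070 genes, 665, 4745, 3764 and 4684 passed that unadjusted threshold. DESeq2 called 0, 0, 0 and 1 of the 10, the last being Mptx1 (adjusted p 0.0423). Of all genes it called 37 of 14034, 3212 of 14034, 2031 of 11674 and 3218 of 13563. For the 8 abundant genes the values ran from 0.15 to 0.57 in SPF mice, -0.10 to 0.35 after antibiotics, and -0.44 to 0.01 in germ-free mice. Averaged over contexts they ran from -0.04 to 0.17, with intervals of 2 SE that together spanned -0.28 to 0.48. All 8 were thus above 0 in SPF mice, where the median of the 20 tested Defa genes was 0.47, with 0 of these called. Without germ-free zinc replicate 1, Habp2 was called lower on zinc water in germ-free mice (-0.58, adjusted p 0.0462), where 215 of all 13073 genes were lower.

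None of the 10 genes passed the test for a difference of the zinc effects between contexts on the scaled CPM. The differences of antibiotics minus SPF, germ-free minus SPF and germ-free minus antibiotics were called for 0.0%, 0.0% and 0.207% of all genes. At an unadjusted p under 0.05 there were 2 of the 10 (Mptx1 and Habp2), 4 (Itln1, Mptx1, Habp2 and Pnliprp2) and 0. Of all 13070 genes, 2418, 1741 and 2140 passed that unadjusted threshold. DESeq2 called 0 of the 10 in each, against 306 of 9780, 32 of 13563 and 363 of 10729 of all genes. For germ-free minus SPF, the largest such values beside that of Mptx1 were -0.95 ± 0.30 for Pnliprp2 and -0.85 ± 0.24 for Habp2. Relative to the Defa sum, the zinc effect on Mptx1 was higher in germ-free than SPF mice (2.57 ± 0.68, adjusted p 0.0335, against 6.29% of all genes higher), a call that was lost without SPF Milli-Q replicate 2 (1.52, adjusted p 0.250) and without any 1 of 7 other libraries.

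**Figure D4:**
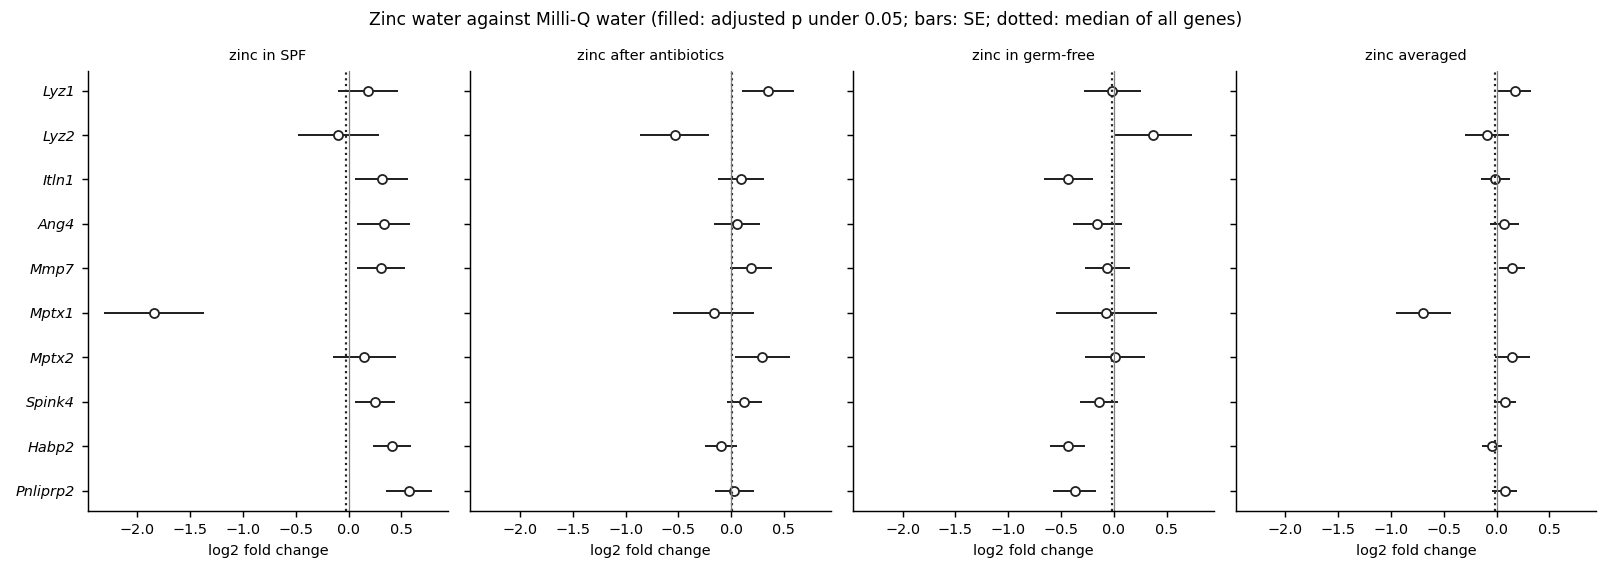
Log2 fold change of TMM-scaled counts on zinc against Milli-Q water (x axis) for each gene with its SE, in the 3 contexts and averaged; dotted lines mark the median of all genes and filled circles would have an adjusted p under 0.05. No circle is filled, and Mptx1 in SPF mice, at -1.84, lies farthest from 0.

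Whether the genes followed the Defa genes from mouse to mouse was read within groups, since germ-free and SPF-housed libraries lay apart. After subtraction of group means, the log2 scaled CPM of Ang4 followed that of the Defa sum most closely over the 21 libraries (Pearson r 0.94, permutation p 2e-05; Spearman rho 0.95). Spink4 (r 0.84), Pnliprp2 (0.83), Itln1, Habp2 and Lyz2 (0.82 each), Mmp7 (0.76) and Lyz1 (0.70) followed as well, with two-sided permutation p-values up to 0.00762 and Spearman rho from 0.69 to 0.88. Mptx2 gave r 0.56 (permutation p 0.0361, rho 0.52), and 0.14 (permutation p 0.611) without the 2 libraries farthest from the median, germ-free zinc replicate 1 and SPF Milli-Q replicate 2. Its relation therefore rested on those libraries. The other 8 kept r between 0.65 and 0.91 without them. Mptx1 gave -0.06 (permutation p 0.830, rho -0.06). These were 10 relations, with p-values not adjusted, and the median r over all 13070 genes was -0.04. Within the SPF-housed mice alone (n = 14) the r of Ang4 was 0.93 and that of Lyz1 0.60, and within germ-free mice (n = 7) they were 0.97 and 0.91. That of Mptx1 was -0.59 and 0.81 in these sets. In germ-free mice all 10 genes gave r of 0.81 or more (median 0.94). Each set holds 1 of the 2 farthest libraries named above, and r within a set was not computed without it.

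The TMM factor of a library enters both values of each relation, and the relations depended on it. With library totals only, the r of Ang4 was 0.74 (permutation p 0.00794), Habp2 gave 0.49 (permutation p 0.0428) and Pnliprp2 0.44 (permutation p 0.0378), while Lyz1 (0.08), Mmp7 (0.18), Itln1 (0.37), Spink4 (0.38) and Lyz2 (0.50) were no longer past an unadjusted p of 0.05. Mptx1 turned to -0.66 (permutation p 0.0114). The median over all genes was -0.24 on that scale. With each gene taken as a percent of the counts outside the Defa genes, Ang4 gave 0.85 and Lyz1 0.32.

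**Figure D5:**
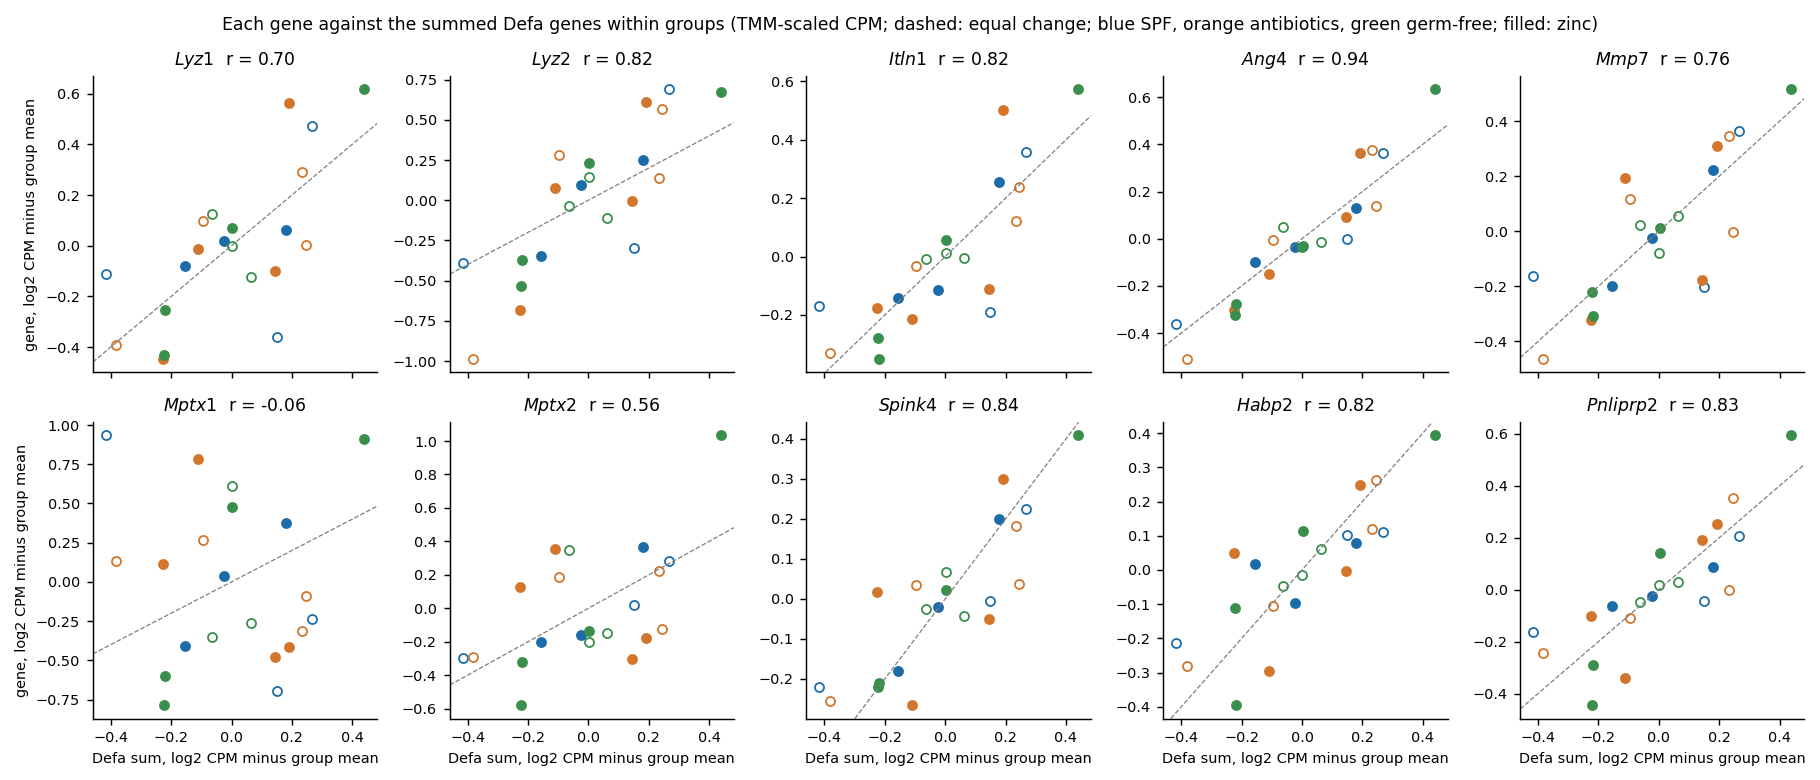
Log2 scaled CPM of each gene (y axis) against that of the summed Defa genes (x axis) in the 21 libraries, both minus their group mean; colours and fills are as in the plot of shares of counts and the dashed line marks equal change. Points of Ang4 lie close to the line (r 0.94), those of Mptx1 are scattered (r -0.06).

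Of 39 relatives and partners of these genes, 15 passed the filter on low counts. In germ-free against SPF mice 7 of the 15 were higher on Milli-Q water (median log2 fold change 0.63) and 5 on zinc water (0.55), with 0 lower in both. Of all genes, 12.7% and 3.47% were higher and 11.6% and 2.38% lower. Pnliprp1 (2.29 ± 0.25), Clps, the colipase that lets lipases act on bile-covered fat (1.75 ± 0.23), and Pla2g2a, a phospholipase of Paneth granules that kills bacteria (1.65 ± 0.26), rose on Milli-Q water beside Ang and Rnase1. Pla2g2f (1.05 ± 0.19) and Hgfac (0.63 ± 0.20) rose as well. Pnliprp1 also rose relative to the Defa sum (0.75), as Pnliprp2 did. On that scale 1 of the 15 was higher and 9 were lower on Milli-Q water (median -1.02), against 0.130% and 89.7% of all genes. In germ-free mice 3 of the 15 were lower on zinc than on Milli-Q water, namely Pla2g2a (-1.07 ± 0.24), Pnliprp1 (-0.71 ± 0.22) and Ang (-0.62 ± 0.13), against 5.47% of all genes lower. Of 35 genes of secretory granules and regulated exocytosis that were tested, 13 were higher and 3 lower in germ-free than SPF mice on Milli-Q water, with a median of 0.12, against 12.7% and 11.6% of all genes. The 3 lower ones were Chga and Chgb, granins of enteroendocrine cells, and Snap23. Among the higher ones were Slc30a2, a zinc transporter of the granule membrane (1.18 ± 0.17), Bhlha15, a transcription factor of secretory cells (1.07 ± 0.15), and Vamp8, a SNARE of exocytosis (1.04 ± 0.15). These calls are on TMM-scaled counts. As a share of counts, the 38 genes of that list took 0.235% to 0.352% in SPF and 0.184% to 0.202% in germ-free mice on Milli-Q water. Relative to the Defa sum, 29 of the 35 were lower and 0 higher, against 89.7% and 0.130% of all genes.

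The genes most like each member, by Pearson r of log-CPM over the 21 libraries among 9325 genes, included several recurring names. Clps was among the closest 2 to Itln1 (r 0.99), Ang4 (0.98), Spink4 (0.98) and Pnliprp2 (0.98), and Wnt3, the Paneth cell ligand for stem cells, to Itln1 (0.98), Spink4 (0.96) and Habp2 (0.99). Pnliprp1 was closest to Pnliprp2 (0.98), Bambi was near Ang4 (0.97), and Pycr1 near Habp2 (0.98). Lyz1 was most like C4bp and Cyp2c68 (0.97 each) and Mmp7 most like Tm4sf4 (0.96) and Ccl6 (0.95). Lyz2 and Mptx1 had no close match, with r up to 0.82 (Nr1d2) and 0.72 (Prss32). These values include the difference between germ-free and SPF-housed libraries and carry no test.

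In the 250 bases before the RefSeq start (GRCm38.p6, both strands), the letters TATAA were found for Itln1, Mmp7, Mptx1 and Mptx2, or 4 of the 9 members in the promoter table, and in 22.8% of all 32851 promoters. The letters CTTTGAT, a form of the site of Tcf factors of the Wnt pathway, were found for Mmp7 alone, and in 3.21% of all promoters. Spink4 was not in the table. These matches are a description of the windows.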

How the data were processed

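The table of read counts per gene was deposited by the authors for 21 libraries, all of whose columns were matched to labels (0 unmatched). The submitters' processing notes name FastQC 0.12.0, STAR 2.7.0a, DESeq2 and mm39. The counting tool, strand setting and treatment of reads with several hits are not given in the sources used here. Of 55414 gene identifiers, 54749 were matched to GENCODE M39, and the 665 others held 0.0164% of counts.

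Counts were fitted with edgeR 4.0.16 (R 4.3.3, limma 3.58.1; quasi-likelihood test, TMM, filterByExpr, 1 coefficient for each of 6 groups, common dispersion 0.0369), with Benjamini-Hochberg adjustment over 13070 genes in each of 13 comparisons and a threshold of 0.05. For values relative to the Defa sum, the summed Defa counts replaced the library size. DESeq2 1.42.0 was an alternative, beside other scalings, filters, a replicate block, fits of the compared groups alone and leaving out each library. Correlations used log2(scaled CPM + 0.5), group means removed, and 100000 permutations (Python 3.11.15, scipy 1.17.1). The fits were tested on simulated data. Libraries held 9888174 to 16896714 counts, which limits the precision of Lyz2 and Mptx1.

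The members, lists and tests were chosen with earlier results of these data known. Genes named beside the 10 were the 2 most alike by correlation (mean CPM of at least 5), members of the fixed lists, and examples from those lists picked after their values were seen. Of 48 pairs of libraries that share a replicate number, 7 correlated above 0.1 (range -0.386 to 0.229), so the numbers were not taken as pairs. Each library came from an individual mouse according to the study.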

Additional observations from a re-analysis of the deposited data

Results flagged for a closer look

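Itln1 in antibiotics zinc replicate 1 had a scaled CPM of 31899, while the other 3 libraries of that group lay between 19403 and 20882. Its share of counts was 3.46%, against 2.29% to 2.65% in the others. It was marked as a library far from the rest of its group, 1 of 30 groups of 4 examined for the 10 genes, and chance marks about 1 in 20 such groups.

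The zinc effect on Mptx1 relative to the summed Defa counts differed between germ-free and SPF mice by 2.57 on the log2 scale in edgeR's interaction test (adjusted p 0.0335). The 3 SPF libraries on Milli-Q water held 0.000629%, 0.000762% and 0.00222% of counts on Mptx1, the highest being replicate 2, without which the value was 1.52 (adjusted p 0.250).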

How the results depend on the processing

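Direction was read only for called values. With library totals only, the calls among the 10 genes numbered 2 in germ-free against SPF mice on zinc water, 5 and 4 in germ-free against antibiotic-treated mice on Milli-Q and zinc water, 1 in antibiotics against SPF on zinc water and 1 for averaged zinc. Of all 13070 genes, 6310, 10340, 8649, 606 and 1286 were called in these comparisons on that scale. The values that turned were Lyz2 (-0.88) and Mptx2 (-0.22) in germ-free against antibiotic-treated mice and Mmp7 (-0.20) in germ-free against SPF mice, all on Milli-Q water. With only the compared groups in the fit, germ-free against SPF on zinc water gave 0 calls, against 14 of 11912 genes. Averaged zinc gave 1 call under DESeq2, the replicate block or no filter, against 3218 of 13563, 2831 of 13070 and 3064 of 24548 genes. Without a filter, zinc in SPF mice and the zinc differences of antibiotics minus SPF and germ-free minus SPF gave 1 call each. Of all 24548 genes in that fit, 269, 675 and 429 were called. The replicate block gave 1 call for antibiotics against SPF on zinc water, on TMM-scaled counts and relative to the Defa sum alike. Of all 13070 genes, it gave 934 and 1296 calls.

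Relative to the Defa sum and without a filter, there were 4 and 1 calls in germ-free against SPF mice on Milli-Q and zinc water, 3 and 3 against antibiotic-treated mice, and 1 for the zinc difference of antibiotics minus SPF. Of all 24548 genes in that fit, 12253, 7441, 12710, 11580 and 211 were called. The zinc difference of germ-free minus SPF gave 0 with Defa24 alone or with the replicate block, against 206 and 39 of 13070 genes.

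With library totals only, correlations with the Defa sum were 0.078 for Lyz1, 0.50 for Lyz2, 0.37 for Itln1, 0.18 for Mmp7, -0.66 for Mptx1, -0.083 for Mptx2 and 0.38 for Spink4. As a percent of counts outside the Defa genes they were 0.32 for Lyz1, 0.59 for Lyz2, 0.46 for Mmp7, -0.56 for Mptx1 and 0.10 for Mptx2.

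Leaving out 1 library at a time, calls on TMM-scaled counts ranged from 0 to 1 in antibiotics against SPF on Milli-Q water, 1 to 2 on zinc water, 0 to 6 in germ-free against SPF on zinc water, and 0 to 1 for averaged zinc and for zinc in germ-free mice. Relative to the Defa sum they ranged from 0 to 4 in antibiotics against SPF on zinc water, 4 to 7 in germ-free against SPF on Milli-Q water, 0 to 1 for zinc in SPF mice and averaged zinc, and 0 to 2 for the zinc differences of antibiotics minus SPF and germ-free minus SPF. Calls over all genes moved as well. In germ-free against SPF mice on zinc water, TMM-scaled counts gave 764 calls of 13070 genes with all libraries. Without germ-free zinc replicate 1 these were 370 of 13073, and without SPF zinc replicate 1 they were 541 of 13362. Relative to the Defa sum, antibiotics against SPF on zinc water gave 2572 calls of 13070 genes, and 46 without SPF zinc replicate 1. The correlation of Mptx2 ranged from 0.31 to 0.62. The cause of these changes was not tested.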
